A study of Mus musculus with 12 samples.

Results

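Ovaries in which *Smad4* had been deleted in germ cells, and in which 1 functional copy of *Stra8* was kept, were compared gene by gene with control ovaries of the same embryonic age. The members are the 6 arrays of these 2 groups among the 12 arrays of the series, chosen by the genotype in the sample labels: 3 *Smad4 (Stella)* ovaries (Smad4flox/flox MerCreMer *Stra8*+/-) and 3 control ovaries. The question of the comparison is which genes and pathways move with loss of SMAD4 while STRA8 is present. All ovaries were taken at E14.5 from embryos on a mixed background whose mothers had been given tamoxifen at E9.5 and E10.5, and all 6 were *Stra8*+/-, so that the controls had lost 1 copy of *Stra8* as well. Control ovary 1 was Smad4Flox/+ with StellaMerCreMer, control ovary 2 was Smad4Flox/+ without the Cre, and control ovary 3 was Smad4Flox/Flox without the Cre. The Cre is a tamoxifen-dependent recombinase driven by the *Stella* gene in germ cells, and its recombination varies between germ cells, so a *Smad4 (Stella)* ovary can hold germ cells that escaped the deletion. Each sample was RNA of 1 pair of whole gonads, in which germ cells lie among pregranulosa, interstitial, endothelial and blood cells. The other 6 arrays, 3 of DKO ovaries (Smad4flox/flox MerCreMer *Stra8*-/-) and 3 of control testes (Smad4Flox/+ StellaMerCreMer *Stra8*+/-), entered the same model and are given beside some genes.

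SMAD4 is the common partner of the receptor-activated SMADs: ligands of the BMP, activin, Nodal and TGF-beta families bind serine/threonine kinase receptors, the receptors phosphorylate SMAD1/5/9 or SMAD2/3, and the complex with SMAD4 regulates target genes in the nucleus. In the fetal ovary BMP ligands come from somatic cells, and the *Id* genes and *Msx* genes are widely used readouts of BMP signalling. Retinoic acid induces *Stra8* in germ cells, which leave the pluripotency-like programme of primordial germ cells and enter meiotic prophase, with the synaptonemal complex, programmed DNA breaks and meiosis-specific cohesins as its machinery. Germ cells of the fetal testis instead arrest in the cell cycle and switch on a male programme.

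Levels are log2 intensities relative to the 75th percentile of the same array, so that 0 is the intensity of that percentile and a difference of 1 is a 2-fold change. Levels of different genes are not compared with each other, since each probe has its own brightness. Between 58.8% and 70.6% of probes were well above background on the 6 arrays, and replicates correlated across genes at r between 0.975 and 0.992. The 75th percentile was an intensity of 476, 754 and 585 in control ovaries and 997, 704 and 730 in *Smad4 (Stella)* ovaries. The part of these differences in the relative levels of dim probes was not tested. The SD between replicates, averaged over genes, was 0.29 in control and 0.20 in *Smad4 (Stella)* ovaries. Genotype and slide were not crossed: control ovary 1 lay on a slide with the testes, control ovaries 2 and 3 on a slide with DKO ovaries 1 and 2, and all *Smad4 (Stella)* ovaries on a slide with DKO ovary 3. No slide held both groups compared, so there is no value within a slide, and slide and genotype cannot be told apart except through the DKO arrays, which link 2 of the slides in a model with slide as a fixed block. That model leaves control ovary 1 out of the difference, since its slide otherwise held only testes. It sets control ovaries 2 and 3 beside DKO ovaries 1 and 2, and the *Smad4 (Stella)* ovaries beside DKO ovary 3 alone. The 3 control ovaries also differed from each other in Cre and in *Smad4* allele.

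The targeted gene did not mark the groups in whole-gonad RNA. *Smad4* stood at 1.99, 2.35 and 2.27 in the control ovaries and at 2.17, 2.26 and 2.08 in the *Smad4 (Stella)* ovaries, and the ranges overlapped. The difference was -0.03 ± 0.14 (log2, SE, 3 arrays against 3, limma adjusted p = 0.91), whose sign turned when control ovary 2 or *Smad4 (Stella)* ovary 3 was left out. Somatic cells keep their *Smad4*, and a probe outside the deleted exons would still read the transcript, so this value checks neither the labels nor the extent of deletion. *Stra8*, the retinoic acid target required for meiotic entry, stood at 6.71, 6.16 and 6.46 in control and at 6.34, 6.41 and 6.28 in *Smad4 (Stella)* ovaries, again overlapping. Ovarian identity followed the labels: the summed level of 13 pregranulosa cell genes, relative to the 75th percentile, lay between 75.8 and 88.1 in control ovaries, between 73.4 and 88.1 in *Smad4 (Stella)* ovaries and between 14.52 and 17.7 in control testes. For 14 Sertoli cell genes, the summed levels were 3.67 to 3.84, 3.96 to 5.06 and 124 to 133 in that order.

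The promoters of 4 genes that rose are shown because these genes are among the largest named rises and differ in base composition and in SMAD-related motifs. Each run is the 250 bases before the annotated start in RefSeq on GRCm38.p6, 5′ to 3′ on the strand of the gene, and capitals mark the GC-rich box GGCGCC, which SMAD1/5 complexes can bind. The regions are chr6:85513590-85513839 on the minus strand for *Egr4*, chrX:164497653-164497902 on the plus strand for *Asb9*, chr4:144408465-144408714 on the minus strand for *Pramel13* and chr13:112987552-112987801 on the plus strand for *Ccno*.
Egr4: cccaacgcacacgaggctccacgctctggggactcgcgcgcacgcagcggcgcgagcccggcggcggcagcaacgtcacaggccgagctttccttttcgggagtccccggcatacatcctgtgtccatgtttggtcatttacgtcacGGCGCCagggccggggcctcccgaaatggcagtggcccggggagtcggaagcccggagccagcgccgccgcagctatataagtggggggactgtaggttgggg
Asb9: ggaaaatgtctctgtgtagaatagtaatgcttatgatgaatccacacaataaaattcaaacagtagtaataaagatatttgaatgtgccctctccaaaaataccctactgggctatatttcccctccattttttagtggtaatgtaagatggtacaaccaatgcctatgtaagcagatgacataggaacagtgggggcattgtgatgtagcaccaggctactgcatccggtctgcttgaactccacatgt
Pramel13: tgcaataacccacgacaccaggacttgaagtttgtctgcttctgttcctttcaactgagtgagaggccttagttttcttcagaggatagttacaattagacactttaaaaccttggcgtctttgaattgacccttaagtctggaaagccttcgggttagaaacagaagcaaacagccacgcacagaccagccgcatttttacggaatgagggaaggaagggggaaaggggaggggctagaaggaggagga
Ccno: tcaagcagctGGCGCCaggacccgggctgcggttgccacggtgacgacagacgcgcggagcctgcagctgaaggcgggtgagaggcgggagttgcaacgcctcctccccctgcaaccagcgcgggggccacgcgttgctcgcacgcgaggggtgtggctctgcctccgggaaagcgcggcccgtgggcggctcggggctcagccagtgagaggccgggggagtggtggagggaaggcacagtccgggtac
The *Egr4* and *Ccno* promoters were GC-rich, at 68.0% and 72.4% G or C, and each held 1 GGCGCC, from -103 to -98 and from -240 to -235 relative to the start. The *Asb9* and *Pramel13* promoters had 40.0% and 47.2% G or C and held none of the motifs searched.

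In the same window of all 12086 tested genes with a listed promoter, on both strands, GGCGCC was present in 18.6%, the palindromic SMAD box GTCTAGAC in 0.281%, the E-box CACGTG in 9.53%, the E-box CACCTG, of the kind bound by the oocyte factor FIGLA, in 19.17% and the E2F box TTCCCGCC in 3.80%. Among the 18 genes with a promoter that rose, 3 held GGCGCC (*Ccno*, *Egr4* and *Serpina3a*), 2 held CACGTG (*Nrarp* and *Radx*), 2 held TTCCCGCC (*Accs* and *Radx*) and none held the other 2 motifs. Among the 11 genes with a promoter that fell, 2 held GGCGCC (*Pbdc1* and *Ska2*), 2 held CACCTG (*Adamts20* and *Ppp2r3a*) and none held the other motifs. These letters describe the window and not binding by a factor.

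Few genes separated the 2 groups. Of 18675 genes tested, 25 rose (0.134%) and 27 fell (0.145%) in *Smad4 (Stella)* ovaries at an adjusted p under 0.05 in limma and a change of at least 1.5-fold. The rises ranged from 1.52 to 28.9-fold. The smallest fall was 1.51-fold. The largest is known only as a bound, at least 6.43-fold, since no *Smad4 (Stella)* array had that transcript well above background. The median log2 fold change of all genes was -0.02, with 8712 positive and 9963 negative. In each of these 52 genes the 3 *Smad4 (Stella)* arrays lay outside the range of the 3 control arrays. In each the sign was the same with any array left out, with a largest unadjusted p of 0.00103 in limma. The genes were chosen on these same arrays, so the separation and the kept signs add no support. The counts themselves were fragile: without *Smad4 (Stella)* ovary 3 there were 0 calls by limma, beside 427 genes higher and 631 lower at an unadjusted p under 0.05 and the same fold, and without control ovary 2 there were 1 higher and 2 lower. Quantile normalization gave 48 higher and 17 lower in place of 25 and 27, the deposited table without scaling 12 and 2, with the median of all genes at 0.40, and normexp background correction 2 and 0. At an unadjusted p under 0.05 with the same fold, 436 genes were higher (2.33% of those tested) and 766 lower (4.1%), and these shares are the background for the counts of list members given below.

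**Figure D1:**
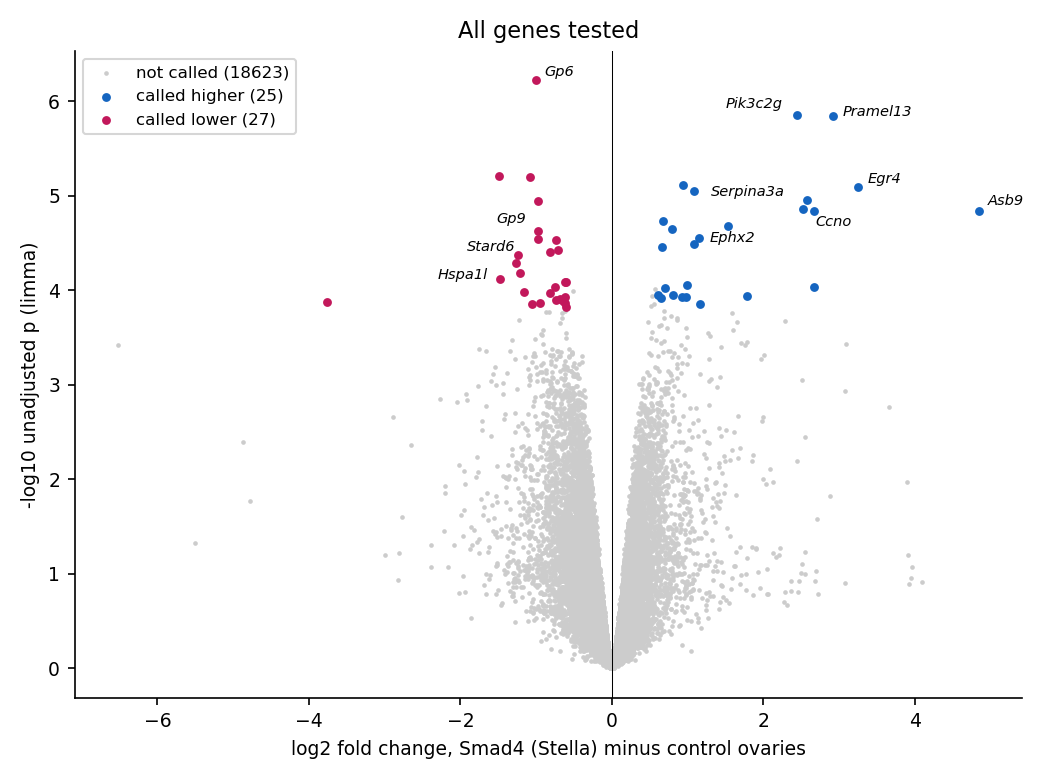
Log2 fold change (x) against -log10 of the unadjusted limma p (y) for the 18675 genes tested, with 1 point per gene. The 25 genes that rose and the 27 that fell are coloured, and *Asb9* lies farthest to the right at 4.85.

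The genes that rose by the largest factors included transcripts of germ cells and of unrelated enzymes. *Asb9*, which encodes a substrate-binding subunit of a cullin ubiquitin ligase, stood at -4.66, -5.94 and -3.34 in the control ovaries and at 1.0, -0.60 and 0.22 in the *Smad4 (Stella)* ovaries. The lowest *Smad4 (Stella)* array was above the highest control array, and *Asb9* was well above background on 2 of 3 control arrays. The rise was 4.85 ± 0.64 on the log2 scale (SE, 28.9-fold, limma adjusted p = 0.021). The *Asb9* probe lies on chromosome X at 160977601 to 160977660 of mm9, the build of the array annotation.

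*Egr4*, an early growth response zinc finger transcription factor on chromosome 6 (probe at 85461153 to 85461212), rose 9.49-fold. Its levels were -2.63, -2.11 and -2.49 in control ovaries and 1.67, 0.39 and 0.44 in *Smad4 (Stella)* ovaries, the first array being the highest. The log2 fold change was 3.25 ± 0.40 (adjusted p = 0.0206). *Pramel13*, a member of the PRAME-like family expressed in germ cells, stood at -0.89, -1.63 and -1.78 in control against 2.04, 1.11 and 1.31 in *Smad4 (Stella)* ovaries, with control values given first throughout, and again the first *Smad4 (Stella)* array was the highest and the groups did not overlap. It rose by 2.92 ± 0.30 (7.55-fold, adjusted p = 0.00883), and it was the only rise also called with slide as a fixed block (3.85, adjusted p = 0.0294). Near-identical family members exist for the *Pramel* and *Serpina3* genes, so the assignment of their probes to 1 gene is uncertain.

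The serpin *Serpina3a* and the kinase *Pik3c2g* varied little among *Smad4 (Stella)* ovaries. *Serpina3a*, a secreted protease inhibitor of a multigene family, stood at 0.81, 1.34 and 1.09 in control and at 3.71, 3.60 and 3.65 in *Smad4 (Stella)* ovaries, a rise of 2.57 ± 0.33 (5.95-fold, adjusted p = 0.021). *Pik3c2g*, a class II phosphoinositide 3-kinase, stood at -5.87, -5.19 and -5.14 against -2.94, -3.14 and -2.80, a rise of 2.44 ± 0.25 (5.43-fold, adjusted p = 0.00883), with 2 of 3 control arrays well above background. In both genes the 3 *Smad4 (Stella)* arrays lay close together and far above the controls. With slide as a block the differences were 1.5 for *Serpina3a* (adjusted p = 0.263) and 1.51 for *Pik3c2g* (adjusted p = 0.0856).

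The cyclin *Ccno*, which acts in the formation of multiple motile cilia, rose from -3.12, -3.92 and -3.18 to -0.08, -1.27 and -1.29 (2.52 ± 0.33, adjusted p = 0.021). *Radx*, a single-stranded DNA binding protein at replication forks, rose from -2.60, -2.93 and -2.53 to -0.48, -1.32 and -0.89 (1.79 ± 0.30, adjusted p = 0.0478). In both the first *Smad4 (Stella)* ovary was the highest. The soluble epoxide hydrolase *Ephx2* had the tightest control levels of the named rises, 2.12, 2.01 and 2.01, and reached 3.46, 2.93 and 3.20 (1.15 ± 0.16, 2.22-fold, adjusted p = 0.0271).

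For 2 further genes that rose only a lower bound can be given, because no control array was well above background. The serine protease gene *Tmprss5* was at least 3.13-fold higher (adjusted p = 0.0478), with -3.65, -5.43 and -4.54 in *Smad4 (Stella)* ovaries. The alcohol dehydrogenase gene *Adh4* was at least 1.70-fold higher (adjusted p = 0.0259), with -5.70, -5.40 and -5.66, and 2 of 3 *Smad4 (Stella)* arrays were well above background. These bounds hold for the main processing only. Over 15 other settings the log2 difference ranged from 0.32 to 3.15 for *Tmprss5* and from 0.10 to 1.79 for *Adh4*. In all, 6 of the 25 genes that rose and 14 of the 27 that fell carry a clone, predicted or array name only and are not described singly. The largest fall, of at least 6.43-fold, is among them.

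**Figure D2:**
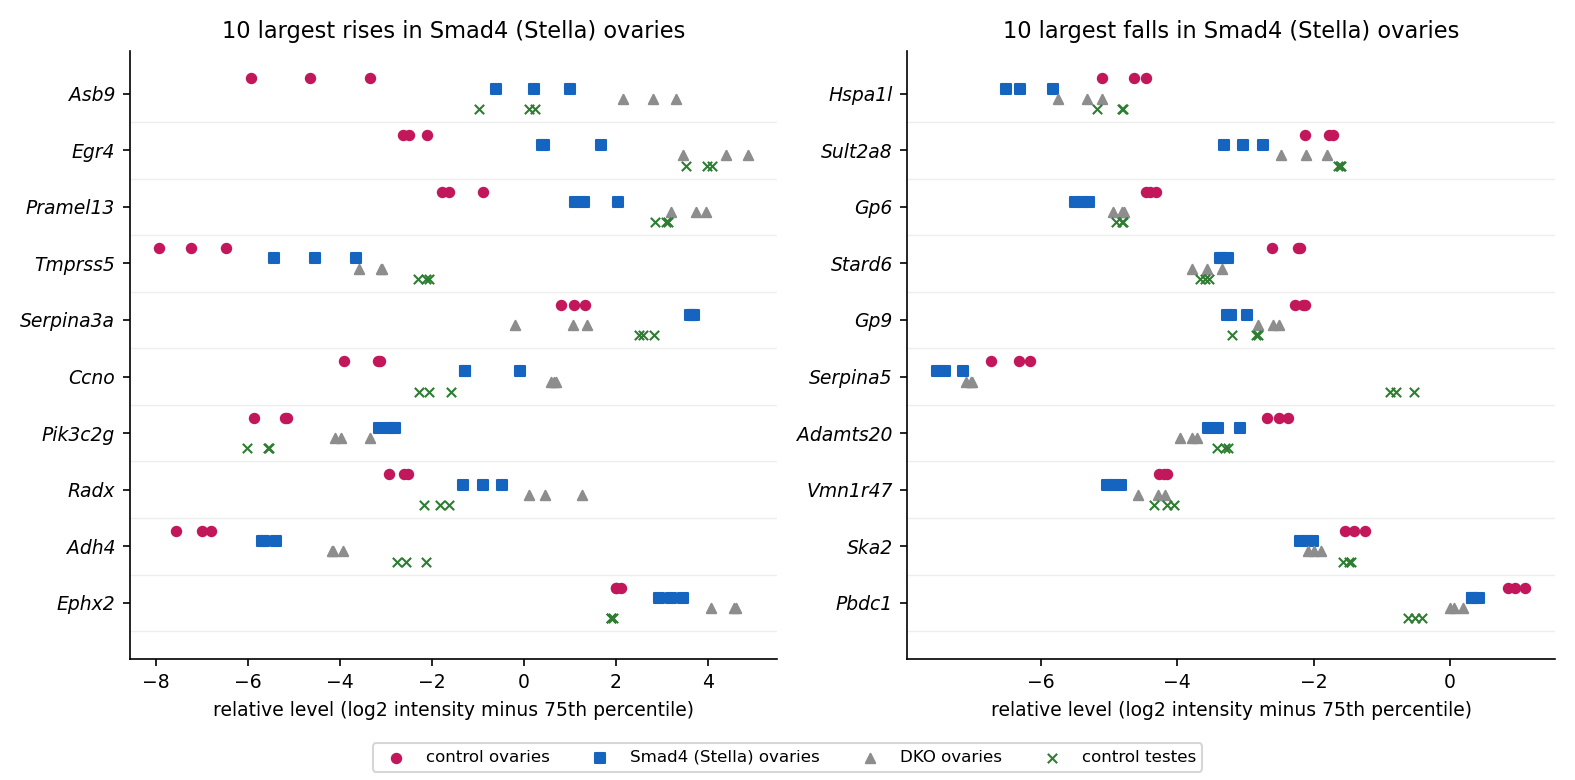
Relative level (log2 intensity minus the 75th percentile of the array, x) of the 10 largest named rises and the 10 largest named falls, with 1 point per array for control ovaries, *Smad4 (Stella)* ovaries, DKO ovaries and control testes. For each gene the 3 *Smad4 (Stella)* arrays lie apart from the 3 control ovaries, by the widest margins in *Asb9* and *Egr4*.

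The falls were smaller, and 2 of those with the smallest adjusted p were platelet genes. *Gp6*, the collagen receptor of platelets, stood at -4.46, -4.40 and -4.31 in control ovaries and at -5.29, -5.39 and -5.50 in *Smad4 (Stella)* ovaries, so it fell by 1.01 ± 0.09 (2.01-fold, limma adjusted p = 0.00883). *Gp9*, a subunit of the platelet receptor for von Willebrand factor, stood at -2.27, -2.12 and -2.15 against -3.22, -2.97 and -3.26, and fell by 0.97 ± 0.13 (adjusted p = 0.0259). Both genes were separated on every array with little spread within either group. Over 16 other settings the log2 difference ranged from -1.15 to -0.35 for *Gp6* and from -1.08 to -0.61 for *Gp9*.

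*Stard6*, a lipid transfer protein of the StAR family, fell from -2.23, -2.20 and -2.61 to -3.37, -3.25 and -3.34, by 0.98 ± 0.14 (adjusted p = 0.0271). The sulfotransferase gene *Sult2a8* fell from -2.12, -1.71 and -1.77 to -2.74, -3.03 and -3.32, by 1.16 ± 0.19 (adjusted p = 0.0478). The heat shock protein 70 relative *Hspa1l*, whose *Smad4 (Stella)* arrays were all below the background criterion, was at least 2.63-fold lower (adjusted p = 0.0478). That bound holds for the main processing only, and over 15 other settings the log2 difference ranged from -1.67 to -0.36.

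The spindle and kinetochore gene *Ska2* fell from -1.54, -1.24 and -1.41 to -2.01, -2.09 and -2.20, by 0.71 ± 0.10 (adjusted p = 0.03). *Pbdc1* fell from 0.85, 1.11 and 0.95 to 0.32, 0.43 and 0.32, by 0.61 ± 0.10. The extracellular protease gene *Adamts20* fell by 0.82 ± 0.14 and the vomeronasal receptor gene *Vmn1r47* by 0.73 ± 0.12, and the adjusted p was 0.0478 for these last 3 genes. The log2 difference of *Vmn1r47* ranged from -0.78 to -0.30 over 16 other settings. *Serpina5*, the protein C inhibitor, was also called lower, at -6.31, -6.15 and -6.73 against -7.40, -7.52 and -7.13, but no array of either group was well above background, so it has no fold.

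Apart from the male and female germ cell lists of the study, 38 gene lists were examined, with 504 tested genes between them, of which 3 rose (*Egr4*, *Pramel13* and *Nrarp*) and none fell. A list is described by its median log2 fold change and by how many members were higher or lower at an unadjusted p under 0.05 and at least 1.5-fold, beside the 2.33% and 4.1% of all genes. Those shares belong to the main model, and the counts over all genes moved with the setting as well. They were 2921 higher and 77 lower with the unscaled deposited table and 101 and 102 with normexp. With slide as a fixed block they were 972 and 940. Member counts under another setting are therefore not to be set against these shares. For ranges over settings, gene and list values with the deposited table were taken minus the median of all genes, while the counts were not. Members that are named without the words rose or fell did not pass the adjusted threshold. Where groups of such genes are said not to overlap, the share of all genes without overlap is not given. Separation of 3 against 3 arrays therefore adds no support by itself.

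BMP ligands and their extracellular antagonists differed little. All 12 members were tested, with a median of 0.08 and none past even the unadjusted criterion. *Bmp7*, a ligand, stood at 1.81, 1.33 and 1.53 in control and 1.78, 1.97 and 1.92 in *Smad4 (Stella)* ovaries (difference 0.33, adjusted p = 0.202), and the ranges overlapped. The list of receptors and Smads of the TGF-beta family, with 17 of 18 members tested, had a median of -0.04 and none past the unadjusted criterion. The type II receptor *Acvr2b* came nearest, at -0.74, -0.06 and -0.72 against 0.06, -0.02 and 0.02 (0.53, adjusted p = 0.247).

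BMP response genes had more negative than positive values, and none passed the adjusted threshold. Of 11 tested, 8 were negative, beside 9963 of all 18675 genes. The median was -0.15 and ranged from -0.49 to -0.01 over 16 other settings. Array by array it stood at -0.20, -0.11 and -0.17 in the *Smad4 (Stella)* ovaries and between -0.097 and 0.058 in the control ovaries. At the unadjusted criterion 2 were lower, which are 18.2% of the list, and 1 was higher. The count of lower members ranged from 0 to 4 over the other settings. *Msx2*, a homeobox gene induced by BMP, stood at -0.50, -0.73 and -0.52 in control ovaries and at -1.24, -1.31 and -1.30 in *Smad4 (Stella)* ovaries, without overlap (-0.70 ± 0.16, adjusted p = 0.0786). Its relative *Msx1* stood at -2.23, -1.33 and -2.07 against -2.90, -2.79 and -2.66 (-0.91 ± 0.25, adjusted p = 0.107). The basic helix-loop-helix gene *Atoh8* was on the other side, at -2.41, -3.91 and -2.02 against -1.88, -1.96 and -1.79 (0.90, adjusted p = 0.224), with control ovary 2 far below the other arrays.

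The *Id* genes, inhibitors of basic helix-loop-helix factors, were also not called. *Id1* stood at 3.69, 3.79 and 3.79 in control ovaries and at 3.09, 3.26 and 3.13 in *Smad4 (Stella)* ovaries, with every *Smad4 (Stella)* array below every control array. The difference was -0.60 ± 0.33 (adjusted p = 0.33). The model shares 1 estimate of the spread over all groups, and the DKO arrays stood at 3.07, 2.39 and 4.06. The difference with slide as a block was -1.96. There control ovary 1 drops out, and DKO ovary 3, at 4.06, stands alone beside the *Smad4 (Stella)* ovaries. *Id3* differed by -0.25 (adjusted p = 0.59) and by -1.33 with slide as a block, and its groups did not overlap. *Id4* stood at 0.91, 1.05 and 1.07 against 0.59, 0.66 and 0.41 (-0.46 ± 0.13, adjusted p = 0.117). *Id2* differed by 0.07 and overlapped, and its sign turned with the brightest probe, with slide as a block and without control ovary 1.

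The other arms of SMAD4 signalling and the retinoic acid pathway held no called gene. The Nodal list of 9 genes had a median of -0.08, which was 0.94 with slide as a fixed block, and array by array it stood at 0.42, -0.25 and -0.15 in the *Smad4 (Stella)* ovaries. *Lefty1*, a Nodal antagonist and target, was the 1 Nodal list member past the unadjusted criterion. Its levels were -7.36, -4.97 and -5.73 in control and -1.81, -3.94 and -3.06 in *Smad4 (Stella)* ovaries, without overlap (3.08 ± 0.69, adjusted p = 0.0784), and 1 of 3 control arrays was well above background. The Nodal cofactor gene *Foxh1* stood at 0.61, 0.71 and 0.81 against 0.31, 0.42 and 0.36 (-0.35 ± 0.09, adjusted p = 0.0958). Among 9 activin, inhibin and TGF-beta ligands, with a median of 0.15, *Tgfb1* differed by 0.46 (adjusted p = 0.187). *Amh* was well above background on 1 control array and on no *Smad4 (Stella)* array, which gives only a bound, at least 1.80-fold lower (adjusted p = 0.0784). Over 15 other settings its log2 difference ranged from -1.02 to -0.19, so the bound holds for the main processing only.

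Of 19 genes of retinoic acid synthesis, breakdown and receptors, 17 were tested, with a median of 0.08 and none past the unadjusted criterion. The retinoid receptor gene *Rxra* stood at -0.37, -0.09 and -0.29 against 0.22, 0.11 and 0.16, without overlap (0.42 ± 0.10, adjusted p = 0.0789). The retinol carrier gene *Rbp4* stood at 0.85, 1.13 and 1.24 against 0.32, 0.65 and 0.57 (-0.56 ± 0.24, adjusted p = 0.237).

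Meiotic genes lay lower as a group, by a small margin that varied between arrays, and none passed the adjusted threshold. Of 59 genes in 4 meiotic lists, 50 were tested, 47 had negative values and 3 positive, and the median log2 fold change was -0.48. At the unadjusted criterion 10 were lower, which are 20% of the tested members against 4.1% of all genes, and 0 were higher. Taken array by array against the mean of the controls, the median member stood at -0.61, -0.27 and -0.48 in the 3 *Smad4 (Stella)* ovaries and at 0.03, 0.06 and -0.10 in the 3 control ovaries, so the groups did not overlap and *Smad4 (Stella)* ovary 2 was the nearest to the controls. The median ranged from -0.62 to -0.36 over 16 other settings, with the deposited table recentred on the median of all genes. The counts that follow were not recentred. The count of lower members ranged from 0, with the deposited table, to 19, with slide as a fixed block. Over all genes 77 were lower with the deposited table and 940 with slide as a fixed block, beside 766 in the main model. Leaving out control ovary 2 gave 6, leaving out *Smad4 (Stella)* ovary 1 also gave 6, and leaving out *Smad4 (Stella)* ovary 2 gave 18.

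Within the machinery of the synaptonemal complex and chromosome axis, all 10 tested genes of 11 were negative, with a median of -0.51 and 3 lower at the unadjusted criterion, or 6 without *Smad4 (Stella)* ovary 2 and 0 with the deposited table. *Syce3*, a central element protein, stood at 2.15, 2.68 and 2.37 in control ovaries and at 1.20, 2.13 and 1.5 in *Smad4 (Stella)* ovaries (-0.79 ± 0.24, adjusted p = 0.127). *Sycp3*, an axis protein, stood at 4.02, 4.39 and 4.34 against 3.52, 3.80 and 3.49 (-0.64 ± 0.18, adjusted p = 0.11). The groups did not overlap in either gene. The central element gene *Syce2* differed by -0.52 (adjusted p = 0.107).

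Of 29 genes of meiotic breaks and recombination, 24 were tested, 23 were negative, the median was -0.47 and 6 were lower at the unadjusted criterion, or 3 without *Smad4 (Stella)* ovary 1, 1 with normexp background correction and 0 with the deposited table. *Meiob*, a single-stranded DNA binding protein of recombination sites, stood at 3.72, 3.85 and 3.86 against 2.82, 3.44 and 3.19 (-0.66 ± 0.17, adjusted p = 0.0928). *Msh4*, which stabilises recombination intermediates, stood at -1.11, -1.02 and -0.98 against -1.86, -1.61 and -1.73 (-0.69 ± 0.17, adjusted p = 0.0877). Neither gene overlapped between the groups. *Iho1*, which is needed for the breaks to form along the axis, stood at 1.64, 1.59 and 1.45 against 0.60, 1.22 and 1.03 (-0.61 ± 0.15, adjusted p = 0.0863). The mismatch repair gene *Mlh3*, which acts in crossover resolution, differed by -0.40 (adjusted p = 0.121).

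The cohesin and telomere attachment list had 12 of 13 genes tested and a median of -0.50, with 10 negative and 1 lower at the unadjusted criterion. The cohesin subunit gene *Smc1b* stood at 6.49, 6.39 and 6.35 against 5.67, 6.11 and 5.86 (-0.53 ± 0.21, adjusted p = 0.208), and *Stag3*, another cohesin subunit, differed by -0.52 (adjusted p = 0.264). The telomere attachment gene *Terb2* stood at 0.52, 0.22 and -0.41 against -0.49, -0.49 and -0.61 (-0.64, adjusted p = 0.195), and *Sun1*, its partner in the nuclear envelope, differed by -0.32 (adjusted p = 0.202).

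Genes of meiotic entry showed a smaller shift. Of 7 such genes 5 were tested, 4 were negative and the median was -0.27, with none past the unadjusted criterion. *Meioc*, required to stay in prophase, stood at 3.17, 3.06 and 2.98 against 2.12, 2.70 and 2.50 (-0.63 ± 0.39, adjusted p = 0.387), and the RNA helicase gene *Ythdc2*, which acts with it, stood at -1.74, -1.69 and -1.75 against -2.14, -2.04 and -2.11 (-0.37 ± 0.11, adjusted p = 0.127). The meiotic cohesin gene *Rec8*, which is induced early, was the exception in this list, at 3.43, 2.56 and 2.53 against 2.97, 2.84 and 3.37, with overlapping groups (0.22, adjusted p = 0.712).

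Genes of germ cells of both sexes also had negative values for the most part. Of 11 tested of 12, 10 were negative and 1 positive, with a median of -0.38, and at the unadjusted criterion 0 were lower and 1 was higher. Their summed level lay between 82.6 and 93.2 in *Smad4 (Stella)* ovaries and between 99.8 and 117 in control ovaries, without overlap. In control testes it lay between 59.2 and 74.4, below every ovary, so these genes did not have a like level in both sexes. In whole-gonad RNA fewer germ cells and less RNA per germ cell cannot be told apart, and the part of germ cell amount in the meiotic values was not tested. In this list the piRNA factor gene *Tdrkh* differed by -0.51 ± 0.11 (adjusted p = 0.0758), *Slc25a31*, a mitochondrial nucleotide carrier of germ cells, by -0.38 (adjusted p = 0.201) and the tudor domain gene *Rnf17* by -0.52 (adjusted p = 0.237). *Nanos3*, which protects primordial germ cells, went the other way, at -5.75, -5.49 and -5.70 against -4.56, -4.79 and -4.69 (0.96 ± 0.39, adjusted p = 0.221).

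Oocyte genes did not move together. Of 18 genes 11 were tested, 7 were negative and 4 positive, the median was -0.12, and 3 were lower and 1 higher at the unadjusted criterion. The count of lower genes was 0 without control ovary 2, control ovary 3 or *Smad4 (Stella)* ovary 3, and 1 when *Smad4 (Stella)* ovary 1 was left out. *Taf4b*, a general transcription cofactor of oocytes, stood at -2.31, -1.98 and -1.99 against -2.62, -2.70 and -2.78 (-0.61 ± 0.13, adjusted p = 0.0751). *Nobox*, an oocyte homeobox factor, stood at -3.64, -2.69 and -2.47 against -3.83, -3.61 and -3.72 (-0.79, adjusted p = 0.219), with control ovary 1 inside the range of the *Smad4 (Stella)* ovaries. *Padi6*, a component of the oocyte cytoplasmic lattices, stood at -3.20, -3.27 and -3.48 against -2.57, -2.26 and -2.52 (0.86 ± 0.25, adjusted p = 0.12), and the homeobox gene *Pou6f1* differed by 0.50 (adjusted p = 0.078).

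**Figure D3:**
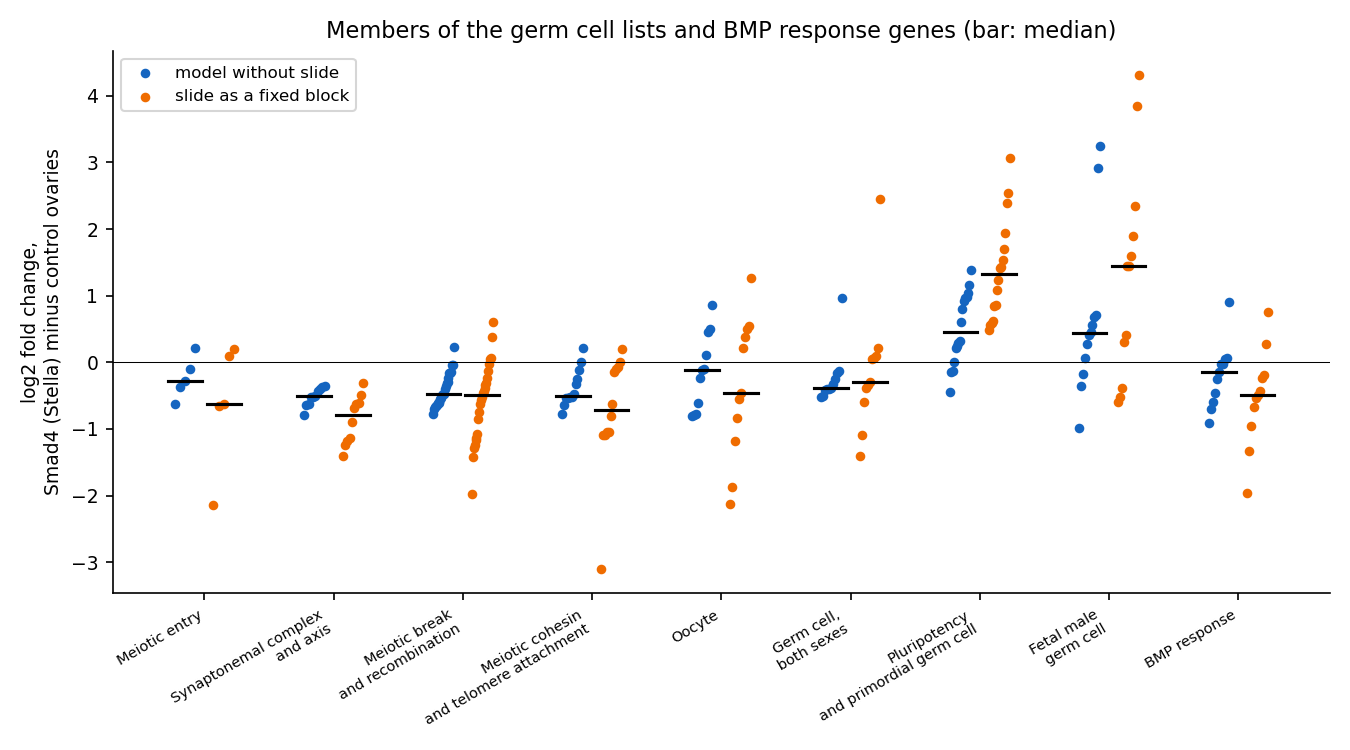
Log2 fold change, *Smad4 (Stella)* minus control ovaries (y), of each tested member of 8 germ cell lists and of the BMP response genes, in the model without slide and with slide as a fixed block, with a bar at the median. The medians of the 4 meiotic lists are below 0 in both models, and those of the pluripotency and fetal male lists are above 0, at 0.46 and 0.44 without slide and 1.32 and 1.45 with slide.

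Pluripotency and primordial germ cell genes lay on the other side of 0. Of 20 genes 16 were tested, 13 were positive, the median was 0.46 and 5 were higher at the unadjusted criterion, which are 31.2% of the tested members against 2.33% of all genes. The control ovaries differed widely in this list: against the control mean, the median member stood at 0.67, -0.58 and -0.19 in control ovaries 1, 2 and 3 and at 0.96, 0.42 and 0.16 in the *Smad4 (Stella)* ovaries. Control ovary 1, the only control with the Cre and the one on the slide of the testes, thus lay among the *Smad4 (Stella)* ovaries. The median ranged from 0.29 to 1.32 over the 16 other settings. The count of 5 was 8 without control ovary 1, 1 without control ovary 2, 0 without control ovary 3, and 0 or 3 when *Smad4 (Stella)* ovary 1 or 2 was left out.

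*Dppa4*, a chromatin factor of pluripotent cells, stood at -0.19, -2.07 and -1.59 in control and at 0.77, -0.21 and -0.27 in *Smad4 (Stella)* ovaries (1.38 ± 0.49, adjusted p = 0.17). *Pou5f1*, the pluripotency factor OCT4, stood at -0.24, -1.97 and -1.37 against -0.02, -0.45 and 0.01 (1.04 ± 0.40, adjusted p = 0.193). In both, control ovary 1 overlapped the *Smad4 (Stella)* ovaries, as it did for *Sox2* (0.97, adjusted p = 0.228). *Utf1*, a chromatin factor of pluripotent and germ cells, did not overlap, at -2.81, -3.50 and -3.87 against -1.69, -2.45 and -2.56 (1.16 ± 0.40, adjusted p = 0.164).

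Fetal male germ cell genes included the 2 list members with the largest rises. Of 14 genes 12 were tested, 9 were positive and the median was 0.44. At the unadjusted criterion 3 were higher, or 25% against 2.33% of all genes, and 2 rose, against 0.134% of all genes. The unadjusted count ranged from 2 to 6 over 16 other settings. *Egr4* and *Pramel13* rose, and *Tdrd12*, a piRNA factor, was the third member past the unadjusted criterion, at -0.63, -0.89 and -0.82 in control ovaries against 0.44, -0.28 and -0.47 in *Smad4 (Stella)* ovaries (0.68 ± 0.28, adjusted p = 0.219). Array by array the median member stood at 0.83, 0.20 and 0.16 in the *Smad4 (Stella)* ovaries and at 0.19, -0.12 and -0.098 in the control ovaries, so control ovary 1 lay above *Smad4 (Stella)* ovary 3. The methyltransferase gene *Dnmt3b*, in the list of DNA and histone methylation genes, whose median was 0.02, differed by 0.33 (adjusted p = 0.17).

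The study's own lists of genes expressed in male or in female germ cells come from earlier data of its authors at E13.5 and not from these arrays. Of 386 male genes 372 were tested, 225 were positive and 147 negative, and the median was 0.13. Among them 5 rose and none fell, and at the unadjusted criterion 61 were higher, or 16.4% against 2.33% of all genes, and 12 lower, or 3.23% against 4.1%. The median of the male list ranged from -0.01 to 0.66 over other settings and the count of higher members from 18 to 122, with 39 when control ovary 2 was left out and 31 when *Smad4 (Stella)* ovary 1 was. The count of lower members became 20 when control ovary 2 was left out and 6 when *Smad4 (Stella)* ovary 3 was. Of 360 female genes 343 were tested, 315 were negative and 28 positive, and the median was -0.40, with a range of -0.50 to -0.33 over other settings. Among them *Stard6* fell and none rose, and 50 were lower at the unadjusted criterion, or 14.6%, with 1 higher. That count of 50 became 24 when *Smad4 (Stella)* ovary 1 was left out and 101 when *Smad4 (Stella)* ovary 2 was, and it was lowest, at 4, with the deposited table. Array by array the male median stood at 0.38, 0.071 and -0.032 in *Smad4 (Stella)* ovaries 1, 2 and 3 and at 0.15, -0.14 and -0.035 in the control ovaries, which overlapped, control ovary 1 lying above *Smad4 (Stella)* ovaries 2 and 3. The female median stood at -0.55, -0.22 and -0.42 in *Smad4 (Stella)* ovaries 1, 2 and 3, below the -0.037, 0.055 and -0.025 of the control ovaries.

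Signalling pathways outside the SMAD family had medians near 0, with single genes to either side. Of 17 Notch pathway genes, 12 were positive, the median was 0.05, and 4 were higher at the unadjusted criterion (23.5%), a count that was 1 without control ovary 1, 2 without *Smad4 (Stella)* ovary 1 and 1 with slide as a block. *Nrarp*, a direct Notch target that feeds back on the pathway, rose from -2.21, -2.46 and -2.32 to -1.38, -1.66 and -1.56 (0.80 ± 0.11, 1.74-fold, limma adjusted p = 0.0259). The endothelial receptor gene *Notch4* stood at -1.27, -0.89 and -1.0 against -0.44, -0.45 and -0.45 (0.61 ± 0.15, adjusted p = 0.0908). *Heyl*, a Notch-induced repressor, differed by 0.60 (adjusted p = 0.141) and by -0.078 with slide as a block. *Hes1*, another Notch-induced repressor, differed by 0.40 (adjusted p = 0.134).

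The Wnt list of 24 genes had a median of 0.05, with 1 lower at the unadjusted criterion. Its best known feedback target, *Axin2*, stood at 0.30, 0.87 and 0.88 in control and at 0.00, -0.07 and -0.11 in *Smad4 (Stella)* ovaries, without overlap (-0.74 ± 0.15, adjusted p = 0.0751). The Wnt effector gene *Lef1* stood on the other side, at 0.97, 1.17 and 1.16 against 1.54, 1.54 and 1.45 (0.41 ± 0.11, adjusted p = 0.109), as did the target *Sp5* (0.57, adjusted p = 0.159). The FGF list of 18 tested genes had a median of 0.01, with 2 lower (11.1%), or none without control ovary 3 and 1 when any single *Smad4 (Stella)* ovary was left out. In it the ERK phosphatase gene *Dusp6* differed by 0.45 (adjusted p = 0.0863), the receptor gene *Fgfr4* by -0.50 (adjusted p = 0.124) and the ligand gene *Fgf7* by -0.85 (adjusted p = 0.212). Of 13 Hedgehog genes, with a median of 0.13, 2 were lower (15.4%), or 1 when control ovary 2, *Smad4 (Stella)* ovary 2 or *Smad4 (Stella)* ovary 3 was left out and 0 with slide as a fixed block. Among them *Shh* stood at -5.05, -5.18 and -4.91 against -5.96, -5.53 and -5.96 (-0.77 ± 0.21, adjusted p = 0.103), and the signal transducer gene *Smo* differed by 0.36 (adjusted p = 0.214), or -0.10 with slide as a block.

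Cell cycle, stress and metabolic lists held no member that passed the adjusted threshold. The medians were 0.10 for 25 genes of DNA replication and mitosis, -0.03 for 13 G1 cyclins and inhibitors, -0.03 for 19 p53 targets and apoptosis genes, -0.05 for 15 interferon response genes, 0.11 for 18 hypoxia and glycolysis genes, 0.18 for 18 cholesterol synthesis genes and -0.15 for 19 immediate early and heat shock genes. The replication helicase gene *Mcm7* stood at 4.49, 3.77 and 3.89 against 4.66, 4.54 and 4.51 (0.52 ± 0.16, adjusted p = 0.135). The mitotic kinase gene *Plk1* differed by 0.35 (adjusted p = 0.158), the G1 brake *Rb1* by -0.35 (adjusted p = 0.191), the apoptosis effector gene *Bax* by 0.37 (adjusted p = 0.231) and the heat shock gene *Hsph1* by -0.61 (adjusted p = 0.174).

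Markers of the other cell types in the gonad were close to the controls in most lists. Medians lay at 0.01 for 13 pregranulosa genes, 0.07 for 14 Sertoli genes, 0.18 for 8 fetal Leydig genes, 0.10 for 16 interstitial genes, 0.15 for 10 surface epithelium genes and 0.09 for 14 macrophage genes. In the Sertoli list the male factor gene *Dmrt1*, which is also expressed in germ cells, stood at -3.74, -4.61 and -4.79 against -1.77, -3.06 and -3.33, without overlap (1.66 ± 0.41, adjusted p = 0.0877). The steroid carrier gene *Star* stood at -3.51, -3.52 and -3.54 against -3.25, -3.08 and -2.99 (0.42, adjusted p = 0.18), and the lipoprotein receptor gene *Scarb1* differed by 0.39 (adjusted p = 0.095). The mesothelial gene *Upk3b* differed by 0.48 (adjusted p = 0.14), or -0.021 with slide as a block.

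Endothelial and blood markers stood slightly apart from 0. Of 15 endothelial genes 13 were positive, with a median of 0.17 that was 0.00 with slide as a block. The junction gene *Cldn5* stood at 0.70, 0.78 and 0.87 against 1.80, 1.17 and 1.27 (0.63 ± 0.18, adjusted p = 0.121), and the endothelial gene *Plvap* differed by 0.48 (adjusted p = 0.167). All 13 tested erythroid genes were negative, with a median of -0.39 and 3 lower at the unadjusted criterion, or 6 when *Smad4 (Stella)* ovary 2 was left out and 1 when *Smad4 (Stella)* ovary 3 was. The embryonic globin gene *Hbb-y* stood at 5.76 and 5.48 in control ovaries 1 and 3, its value in control ovary 2 being missing, and at 4.52, 4.98 and 4.59 in *Smad4 (Stella)* ovaries (-0.93 ± 0.19, adjusted p = 0.0758). Array by array the erythroid median was -0.57, -0.08 and -0.60 in the *Smad4 (Stella)* ovaries, and their summed erythroid level, 236 to 322, overlapped the 290 to 414 of the controls.

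Skeletal muscle genes were high in control ovary 3 alone among these 6 arrays. Of 11 skeletal muscle genes 10 were negative with a median of -1.52, and the values came from control ovary 3, where the median member stood 2.39 above the control mean while control ovaries 1 and 2 stood at -1.60 and -0.77 and the *Smad4 (Stella)* ovaries at -1.54, -1.38 and -1.38. The myosin gene *Myh3* stood at -4.31, -3.15 and 2.88 in control ovaries and at -4.51, -4.1 and -4.94 in *Smad4 (Stella)* ovaries. The mesonephric list had a median of -0.01 over 8 tested genes of 12.

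**Figure D4:**
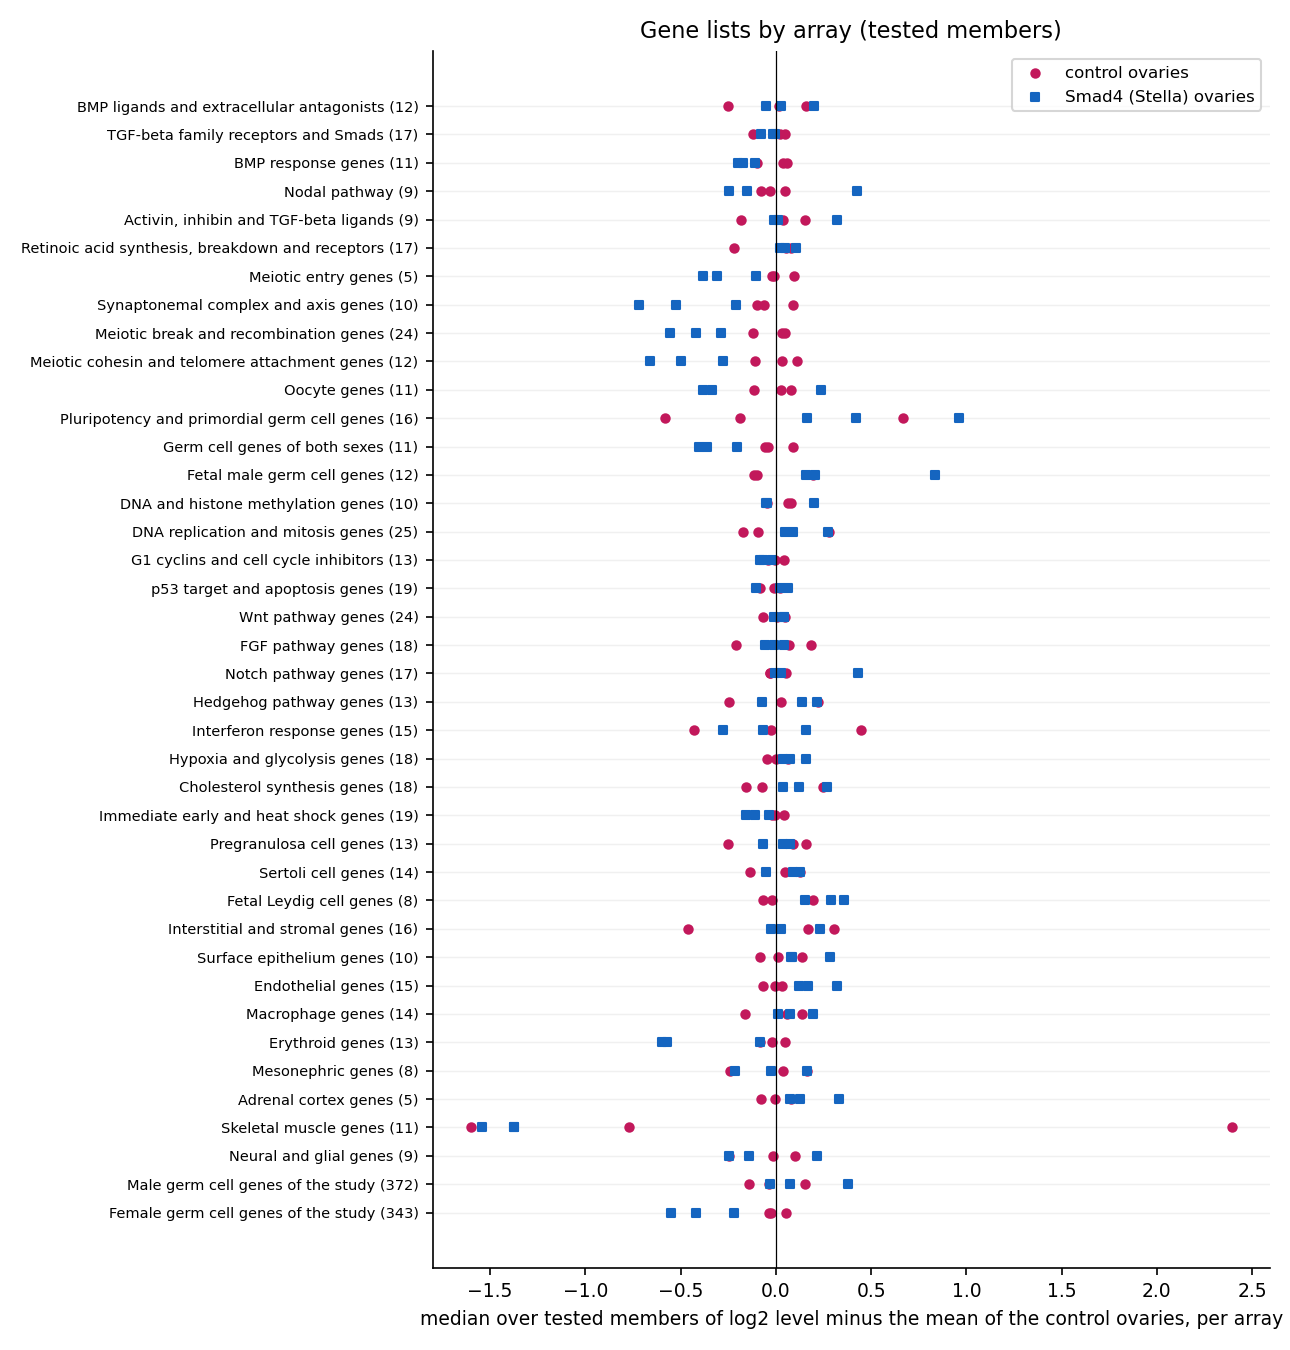
For each gene list (rows, with the number of tested members), the median over members of the log2 level minus the mean of the control ovaries (x), with 1 point per control ovary and per *Smad4 (Stella)* ovary. The *Smad4 (Stella)* ovaries lie below the controls in the 4 meiotic lists, the genes of both sexes and the study's female list. They also lie below the controls in the BMP response list and the immediate early and heat shock list, and above them in the endothelial list. The skeletal muscle row is spread by control ovary 3 at 2.39.

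Beside the DKO ovaries, which lack *Stra8* as well, some of the genes that rose were higher still and others were not. Both differences use the same *Smad4 (Stella)* arrays. *Egr4* stood at 4.87, 4.40 and 3.46 in DKO ovaries, 3.41 above *Smad4 (Stella)* ovaries on the log2 scale (limma adjusted p = 0.000593). *Pramel13* was higher by 2.14 (adjusted p = 0.00155), *Ccno* by 1.54 (adjusted p = 0.0142), *Radx* by 1.5 (adjusted p = 0.0101), *Ephx2* by 1.22 (adjusted p = 0.00125) and *Asb9* by 2.55 (adjusted p = 0.0266). *Serpina3a* was the reverse: at 1.07, -0.19 and 1.37 its DKO levels were 2.90 below those of *Smad4 (Stella)* ovaries (adjusted p = 0.000465) and overlapped the control ovaries. *Pik3c2g* stood at -4.11, -3.98 and -3.35 in DKO ovaries (-0.85, adjusted p = 0.0505), and for *Nrarp* the difference was -0.04 (adjusted p = 0.87). With slide as a fixed block this difference rests on DKO ovary 3 alone, since DKO ovaries 1 and 2 lay on another slide. It was then 2.63 for *Egr4*, 1.70 for *Pramel13*, 1.59 for *Ccno* and 1.35 for *Radx*. For *Ephx2* it was 0.87, for *Asb9* 1.95 and for *Serpina3a* -2.28. With a single DKO array these values are given without a call. *Gp6* and *Gp9* were higher in DKO than in *Smad4 (Stella)* ovaries by 0.55 (adjusted p = 0.00453) and 0.52 (adjusted p = 0.0317). Over all genes tested, 4.39% of genes were higher and 4.02% lower in DKO than in *Smad4 (Stella)* ovaries at the same criterion.

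The control testes give a further level beside these. *Egr4* stood at 3.53, 3.99 and 4.1 in the testes and *Pramel13* at 2.85, 3.08 and 3.13, which are above the *Smad4 (Stella)* ovaries on every array. *Asb9* stood at 0.12, -0.97 and 0.25 in the testes and overlapped the *Smad4 (Stella)* ovaries. *Ccno* stood at -2.05, -1.58 and -2.27, *Ephx2* at 1.90, 1.94 and 1.90 and *Pik3c2g* at -6.01, -5.55 and -5.53, all below every *Smad4 (Stella)* array.

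With slide as a fixed block, estimated through the DKO arrays, all 52 called genes kept their sign. Of the 25 rises 23 had an unadjusted p under 0.05 and 1 was called again, and of the 27 falls 26 had an unadjusted p under 0.05 and 0 were called again. Among all genes 9 were called higher and 4 lower under the block, so most of these calls were of other genes. The list medians moved both ways. Those of the 4 meiotic lists (-0.62), the pluripotency list (1.32), the BMP response list (-0.49) and the study's male list (0.66) were farther from 0 than without the block. That of the genes of germ cells of both sexes moved toward 0, from -0.38 to -0.29. Among the lists whose sign turned were the Nodal list (-0.08 to 0.94), interferon response genes (-0.05 to 0.50), interstitial genes (0.10 to -0.45), FGF genes (0.01 to -0.30), Sertoli genes (0.07 to -0.24) and Hedgehog genes (0.13 to -0.10). This model removes slide by assuming that DKO ovary 3 differs from DKO ovaries 1 and 2 by slide and replicate spread alone. Control ovary 1, whose slide held no other ovary, drops out of it. Its values therefore differ from the main model by that control and by the spread of DKO ovary 3 as well as by slide.

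**Figure D5:**
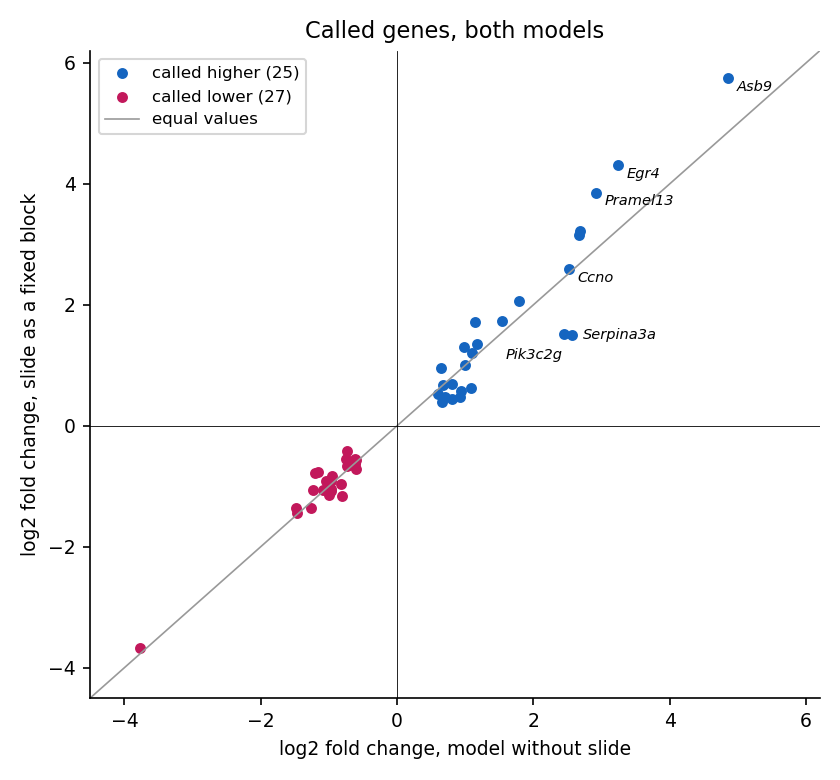
Log2 fold change, *Smad4 (Stella)* minus control ovaries, of the 52 called genes without slide (x) and with slide as a fixed block (y), with the line of equal values. All points keep their sign, *Asb9* (4.85 and 5.75), *Egr4* (3.25 and 4.31) and *Pramel13* (2.92 and 3.85) lie above the line, and *Serpina3a* (2.57 and 1.5) and *Pik3c2g* (2.44 and 1.51) lie below it.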

How the data were processed

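RNA of E14.5 gonads (0.2 µg per sample, Cy3) had been hybridised by the authors to single-colour Agilent arrays, 1 per sample, and the deposited scanner output of Agilent Feature Extraction 11.0.1.1 gives a processed intensity per spot, corrected for background within the array. A deposited table of intensities held the same values rounded, with a largest relative difference of 0.497%, and no scaling between arrays, and was used as an alternative. Groups came from the labels. For each array, log2 of the processed intensity minus the 75th percentile over its non-control spots was computed, and spots flagged as outliers were left out. Spots were averaged per probe, a probe was kept where all arrays of some group had it well above background (27323 of 41174), and probes were averaged per gene, giving 18675 genes. No spot was saturated, 32 genes lacked 1 value, and no array pair was identical. Of the probes, 31791 matched a symbol of the reference table and 9383 kept the array's name.

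Under R 4.3.3 (package data.table, version 1.17.8), limma 3.58.1 was fitted as 1 linear model of 4 groups over 12 arrays, without a block, with Benjamini-Hochberg adjustment, at an adjusted p under 0.05 and at least 1.5-fold. A gene below the background criterion on every array of a group was given a bound, which holds for the main processing only. Samples carried separate replicate numbers in the labels and were treated as separate embryos, and 3 arrays per group limit the precision. The members and lists were chosen with earlier results of these data known. Named genes were the 10 largest rises and 10 largest falls with a gene symbol among called genes without overlap, up to 4 members per list with the smallest p and every called one, and *Smad4*, *Stra8* and the first 3 *Id* genes. Alternatives tried were normexp with an offset of 50, quantile normalization, the deposited table, the brightest probe, other filters, slide as a fixed or random block, a replicate block, the 6 arrays alone, the methods' t-test, other fold thresholds and each of the 6 arrays left out. Tested on simulated data with 200 of 18675 genes changed for this comparison, 64 of 100 changes of 2-fold and 94 of 100 of 4-fold were recovered, with 7 false calls. Some items are not reported here.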

Additional observations from a re-analysis of the deposited data

How the results depend on the processing

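Counts of calls moved with most settings. The 21 called genes described by name kept their sign in all of their 351 fits under 17 other settings, with the deposited table recentred on the median of all genes. These genes were chosen on the same arrays, which most settings fit again, so a kept sign adds little support. In place of 25 genes higher and 27 lower, there were 48 and 17 with quantile normalization, 12 and 2 with the deposited table, 2 and 0 with normexp, 1 and 1 without the filter on dim probes, 61 and 67 with only probes well above background on all 12 arrays, 9 and 4 with slide as a fixed block, 1 and 1 with slide as a random block, 2 and 7 with the 6 arrays alone, 0 and 1 with the methods' t-test and 14 and 10 at 2-fold, and the brightest probe gave 17 lower. Leaving out 1 array gave 0 to 30 higher and 0 to 41 lower. At an unadjusted p, 436 higher and 766 lower became 2921 and 77 with the deposited table, 101 and 102 with normexp, 135 and 189 at 2-fold and 1561 and 2115 with no fold threshold, 504 lower with quantile normalization, 2001 lower without the filter, 444 lower with the strict filter and 972 higher with slide fixed, and 342 to 588 higher and 627 to 1223 lower with 1 array left out. The cause of these moves was not tested, except that the filters change how many genes are tested, the 6 arrays and left-out arrays lower the number of samples and the deposited table leaves out the scaling. The median of all genes, -0.025, was 0.40 with the deposited table and -0.16 without the filter.

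The replicate numbers did not pair the samples: same-numbered arrays correlated at -0.10, -0.03 and -0.02 in their deviations from the group means, so the replicate block, with 3 genes higher and 1 lower, shares only a number.

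Signs turned for genes that were not called. With 1 array left out, *Smad4* ranged from -0.14 to 0.039, *Stra8* from -0.24 to 0.033 and *Id2* from -0.12 to 0.20. *Stra8* was 0.026 with quantile normalization and 0.10 with slide fixed. *Id2* was -0.011 with the brightest probe, -0.49 with slide fixed and -0.034 with slide random, and *Fgfr4* was 0.018 with the brightest probe. With slide fixed, *Heyl* was -0.078, *Smo* -0.10 and *Upk3b* -0.021. The DKO minus *Smad4 (Stella)* difference of *Pik3c2g* was 0.30 with normexp.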

Other observations

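Values of this paragraph were chosen after they were seen and carry no claim beyond themselves. Beside *Gp6* and *Gp9*, 7 other platelet and megakaryocyte genes were looked up. All 7 had negative log2 differences between *Smad4 (Stella)* and control ovaries without passing the adjusted threshold. Over all genes tested, 9963 of 18675 were negative. *Treml1*, a receptor of platelet granules, stood at -1.77, -1.58 and -1.52 in control ovaries and at -2.70, -2.49 and -2.68 in *Smad4 (Stella)* ovaries, a difference of -1.0. The chemokine gene *Ppbp* differed by -1.78 and *Gp1ba*, which encodes a partner of the *Gp9* product, by -0.99, both also without overlap of the groups. The differences were -0.48 for *Pf4*, -0.48 for *Itga2b*, -0.36 for *Gp1bb* and -0.19 for *Itgb3*, and the groups overlapped in the last 3 genes. With slide as a fixed block *Itgb3* turned to 0.38, while the other looked-up genes stayed negative. The part of platelet content in the lower *Gp6* and *Gp9* levels was not tested.

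The potassium channel gene *Kcnc1* stood at -1.26, -1.45 and -1.76 in control ovaries and at -8.24, -7.89 and -7.91 in *Smad4 (Stella)* ovaries, where no array had it well above background, so it was at least 30.9-fold lower, but the limma adjusted p was 0.0693. DKO ovaries 1, 2 and 3 stood at -1.55, -5.46 and -7.50, so DKO ovary 3, on the slide of the *Smad4 (Stella)* ovaries, lay nearest to them, and the difference with slide as a block was -2.41. The maternal-effect family members *Nlrp14* and *Nlrp4c* were 2.29 and 1.78 higher (adjusted p = 0.0557 for *Nlrp14*), and the lipid-sensing receptor gene *Pparg* stood at 0.68, 0.55 and 0.54 in control ovaries, at -0.22, 0.02 and 0.01 in *Smad4 (Stella)* ovaries and at -2.83, -3.19 and -2.97 in DKO ovaries, with a *Smad4 (Stella)* minus control difference of -0.65 (limma adjusted p = 0.0507).

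Of the 27 genes that fell, 3 lie on chromosome 18, which also carries *Smad4*: *Stard6*, *Prelid3a* and a transcript without a symbol. None of the 25 genes that rose lies there, and 453 of the 18675 tested genes (2.43%) do. Linkage of the deleted allele to neighbouring alleles on the mixed background was not tested.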
